A study of Homo sapiens with 12 samples.

Results

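The genes described here carry and read the Hedgehog signal inside the receiving cell. They are the receptor genes PTCH1, SMO and HHIP, the transducer genes SUFU, STK36 and KIF7, and the transcription factor genes GLI1, GLI2 and GLI3. They were chosen by name, as 9 of the 22506 genes listed in the count table, and 9 of 9 held enough reads to be tested. RNA sequencing gave 12 libraries, made from the lung cancer lines H1703, H1299, CHAGO and CALU (4 human cell lines), which the series title places under lung squamous cell carcinoma. The groups were tumor-initiating cells (TICs, cells that can start a new tumor) with a PRKCI knockdown, TICs without it, and adherent parental cells. Each group held 1 library per line, so the 4 lines are its replicates. A p-value between states sets a state difference against its spread over lines. A p-value between lines sets a line difference against the scatter left after state, since the libraries of a line differ in state. PRKCI is the gene of an atypical protein kinase C, the iota form. The sources used here give neither the knockdown method nor the culture of the TICs, and parental cells with the knockdown, which the design text also lists, were not analysed here.

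In the resting pathway the receptor PTCH1 holds back SMO, a membrane protein that signals at the primary cilium, and SUFU together with KIF7 keeps the GLI proteins in check. A Hedgehog ligand that binds PTCH1 frees SMO, and full-length GLI2 and GLI3 then switch on target genes, while without ligand GLI3 is mostly cut to a repressor. GLI1, PTCH1 and HHIP are themselves textbook target genes, and GLI1 RNA is widely read as a measure of pathway output.

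PTCH1 is shown first in sequence because it is the receptor and a classical GLI target at the same time. RefSeq promoter windows (build GRCh38.p14, 250 bases before to 50 after a transcript start) were at hand for 7 of the 9 genes, in 13 windows, and GLI1 and GLI3 had no entry there. Of the 5 PTCH1 windows, 1 held the GLI consensus letters GACCACCCA, on the reverse strand. The 250 bases before that start, at chr9:95509267-95509516 on the minus strand, are given 5′ to 3′ with the reverse complement TGGGTGGTC in capitals, which begins 172 bases before the start.

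PTCH1 promoter: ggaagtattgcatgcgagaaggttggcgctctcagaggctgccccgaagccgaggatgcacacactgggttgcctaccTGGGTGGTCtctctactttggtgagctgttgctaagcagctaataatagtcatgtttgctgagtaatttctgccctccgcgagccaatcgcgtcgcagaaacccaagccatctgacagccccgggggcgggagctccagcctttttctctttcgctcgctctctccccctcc

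Both strands were searched, and 83 of 35116 promoter windows (0.236%) held the consensus. Its last 7 letters, CCACCCA, overlap it and occurred in 3227 windows (9.19%), among them those of 2 of the genes described here, PTCH1 and GLI2. A match of letters is a description and not a measured binding site.

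The 3 GLI genes are relatives, so their transcripts (GENCODE v29) were compared for stretches that a sequencing read could not assign. The longest identical stretches between GLI1 and GLI2 and between GLI2 and GLI3 are shown because a read longer than them cannot match both genes exactly.

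GLI1 and GLI2: tgtgtgagcacgagggctgca

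GLI2 and GLI3: cttctccagccgccgctccagcgaggc

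They were 21 and 27 bases long, and that between GLI1 and GLI3 was 17 bases. Exons of GLI1 shared 8 bases with an exon of ARHGAP9 on the opposite strand. Larger overlaps of opposite strands concerned KIF7 with TICRR (589 bases, 11.8% of the KIF7 exons), PTCH1 with AL161729.1 (711 bases), STK36 with RNF25 (260 bases), HHIP with HHIP-AS1 (178 bases) and SMO with AC011005.4 (129 bases). No source used here says whether the counting used strand, so reads from these shared stretches may belong to either gene.

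Libraries held 21.2 to 91.8 M counted reads (M, mega), with CHAGO and CALU deeper than H1703 and H1299. A gene with 0 reads could have stood at up to 0.0346 to 0.135 CPM (a counts-per-million value after TMM scaling, taking 3 reads as the limit of detection). Intervals of levels and of within-line ratios cover counting error only, as do the limits. PRKCI was lower in the knockdown library of each line, at 23.2 to 58.1 CPM in PRKCI knockdown TICs against 199 to 608 CPM in TICs (log2 fold change −3.15 ± 0.37 SE, edgeR with Benjamini-Hochberg adjustment, adjusted p = 0.0489). That call was narrow: no gene was called in this comparison with a 1 CPM filter, without the line block, with 2 states only, or without H1703, H1299 or CALU, while DESeq2 gave PRKCI an adjusted p of 3.38e-13. Parental cells held PRKCI at 261 to 357 CPM. For TICs against parental cells its log2 fold change was 0.078 ± 0.34 SE (edgeR adjusted p = 0.957), with 2 lines higher and 2 lower. Squamous markers varied widely. Summed over 7 genes, their level was 1.04 to 125 CPM in knockdown TICs, 3.60 to 69.8 CPM in TICs and 0 to 25.6 CPM in parental cells. Their highest levels in any library were 45.2 CPM for TP63, 43.6 for KRT6A, 38.8 for SOX2 and 30.4 for DSG3. KRT5 reached at most 2.52 CPM, KRT14 2.47 and PKP1 0.531. The leukocyte genes PTPRC, CD3E and LYZ stayed under 1 CPM in every library. The sum over 6 leukocyte genes, mostly CD68 where it was high, was 149 to 809 CPM in knockdown TICs, 97.1 to 647 CPM in TICs and 1.20 to 338 CPM in parental cells, and its part in the results was not tested. Bulk RNA cannot tell fewer cells that express a gene from less RNA per cell.

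GLI1, the activator that is also a pathway target, had reads in the TICs of every line, and in 3 of the 4 lines it had reads in no other state. In PRKCI knockdown TICs it had 38 reads in H1703 (1.47 CPM) and 0 reads in H1299, CHAGO and CALU. In TICs it had 137 reads for H1703 (6.17 CPM), 31 for H1299 (1.0 CPM), 65 for CHAGO (0.795 CPM) and 131 for CALU (1.58 CPM). In parental cells it had 100 reads in H1703 (3.64 CPM) and 0 reads in H1299, CHAGO and CALU. H1703 was thus the highest line in each state, and its parental and knockdown levels lay within the range of the TIC libraries, so the groups overlapped.

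**Figure D1:**
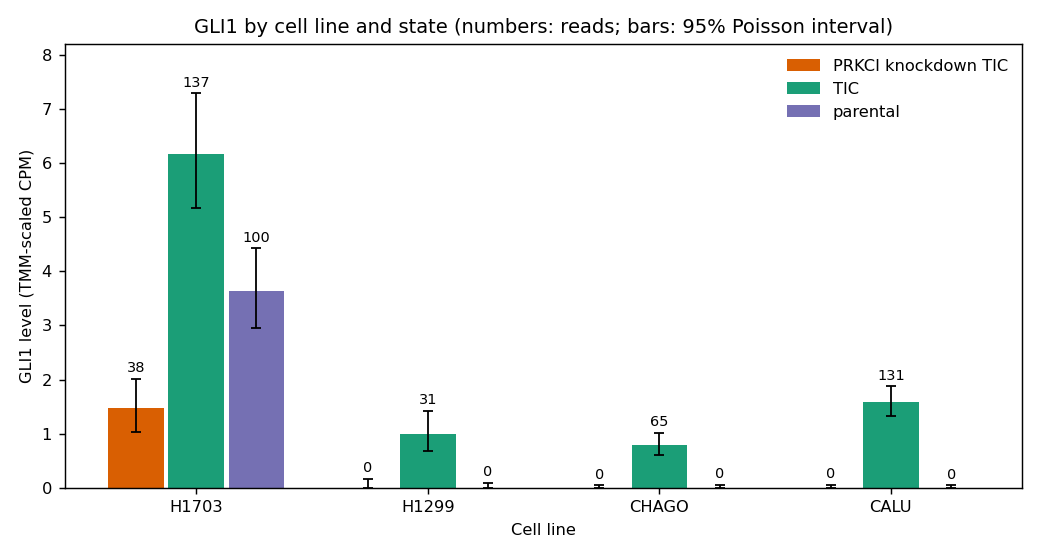
GLI1 level in TMM-scaled CPM for each line and state, with exact 95% Poisson intervals for counting error and the read count above each bar. The TIC bar is the tallest in each of the 4 lines, and in H1299, CHAGO and CALU the other states had 0 reads.

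Knockdown TICs were compared with TICs to see whether GLI1 RNA differed with the PRKCI knockdown. Within H1703 GLI1 was 4.2-fold lower in knockdown TICs than in TICs (ratio 0.238, 95% counting interval 0.162 to 0.343). Against the detection limit it was at least 7.56-fold lower in H1299, at least 20.1-fold lower in CHAGO and at least 37.4-fold lower in CALU. Across lines the level was 0.367 ± 0.733 CPM in knockdown TICs and 2.39 ± 2.54 CPM in TICs (SD, n = 4 each), lower in 4 of 4 lines. The fitted log2 fold change of −7.74 ± 1.87 SE did not pass in edgeR with Benjamini-Hochberg adjustment over all genes (adjusted p = 0.980, unadjusted 0.00195) or in DESeq2 (adjusted p = 0.119). The edgeR test called 0.0143% of 14008 genes in this comparison and DESeq2 0.0785%. It was −2.71 without the line block, −3.51 with mode-normalized values and −4.25 in voom, so the fitted size moved with the method, and its direction did not.

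TICs were compared with parental cells to see whether GLI1 RNA differed between these states. Within H1703 GLI1 was 1.70-fold higher in TICs (95% counting interval 1.30 to 2.22). It was at least 12.8-fold higher in H1299, at least 17.7-fold higher in CHAGO and at least 45.7-fold higher in CALU. The group levels were 2.39 ± 2.54 CPM in TICs and 0.909 ± 1.82 CPM in parental cells (SD, n = 4 each). The fitted log2 fold change of 6.89 ± 1.80 SE missed the threshold in edgeR (adjusted p = 0.210, unadjusted 0.00328, higher in 4 of 4 lines) and passed it in DESeq2 (adjusted p = 0.0182). It was 1.4 without the line block, 3.23 with mode-normalized values and 3.78 in voom. The background called was 0.0286% in edgeR and 4.02% in DESeq2. Within-line differences rest on 1 library on each side and have no replicate check.

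Genes with the on and off pattern of GLI1 were looked up after its values were seen. Of 22506 genes, 77 for H1703, 112 for H1299, 90 for CHAGO and 176 for CALU had at least 30 reads in the TIC library and 0 reads in both other libraries of that line. In 2 or more lines there were 13 such genes, and in 3 or more lines only GLI1. The same search gave 12 genes in 2 or more lines and 0 in 3 or more for reads in knockdown TICs alone, and 17 and 1 (ARHGEF33) for reads in parental cells alone. The minimum of 30 lies just under the 31 reads of GLI1 in H1299. A minimum of 20 reads gave the same counts in 3 or more lines. Minimums of 10 and 5 reads gave more genes, for TICs only at 5. At 5 reads there were 4 for knockdown TICs, 3 for TICs (CLDN2, GLI1 and RNF112) and 7 for parental cells, and at 10 reads there were 2, 1 (GLI1) and 2. At 50 reads there were 0 in each state.

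GLI2, the main activator of the family, ran in opposite directions in different lines. In PRKCI knockdown TICs it was at 1.51 CPM for H1703, 0.662 for H1299, 2.58 for CHAGO and 5.23 for CALU. In TICs it was at 6.98 CPM for H1703, 0 for H1299, 0.391 for CHAGO and 8.62 for CALU. In parental cells it was at 12.2 CPM for H1703, 0.0260 for H1299 (1 read), 0.120 for CHAGO and 20.1 for CALU. H1703 and CALU were high in parental cells and low in knockdown TICs, while H1299 and CHAGO had their highest level in knockdown TICs. Knockdown TICs stood 4.63-fold below TICs for H1703 and 1.65-fold below for CALU, and 6.58-fold above for CHAGO and at least 6.84-fold above for H1299. The log2 fold changes over lines were 2.11 ± 1.52 SE for knockdown TICs against TICs and −0.61 ± 1.27 SE for TICs against parental cells (edgeR adjusted p = 0.980 and 0.896). The first of these turned to −0.68 when the line was left out of the model.

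GLI3, the family member best known as a repressor, was a gene of 3 lines. It had 0 reads in the 3 libraries of H1703. PRKCI knockdown TICs had 28.8 CPM in H1299, 30.4 in CHAGO and 43.6 in CALU. TICs had 33.1 CPM in H1299, 30.2 in CHAGO and 65.1 in CALU, and parental cells had 10.3, 24.7 and 44.5 CPM in the same lines. Its TIC level was above the parental level in each of these 3 lines, by 3.21-fold in H1299, 1.22-fold in CHAGO and 1.46-fold in CALU. The log2 fold change for TICs against parental cells was 0.79 ± 0.42 SE (edgeR adjusted p = 0.522). Knockdown TICs differed from TICs by −0.25 ± 0.42 SE (edgeR adjusted p = 0.987), with ratios of 0.869 in H1299, 1.01 in CHAGO and 0.670 in CALU.

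Per kilobase of exon the family was made up differently in H1703 than in the other lines. GLI3 made up 96.7%, 88.8% and 84.8% of the summed GLI level in knockdown TICs of H1299, CHAGO and CALU, 92.7%, 91.9% and 79.3% in their TICs, and 99.6%, 99.3% and 59.8% in their parental cells. In H1703, with no GLI3 reads, GLI1 made up 63.0% of the sum in knockdown TICs, 60.7% in TICs and 34.3% in parental cells. Where GLI1 had reads only in TICs it stayed a small part of the sum, at 7.30% in H1299, 6.30% in CHAGO and 5.02% in CALU. The summed level per kilobase in H1703 was 0.554 in knockdown TICs, 2.42 in TICs and 2.52 in parental cells.

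**Figure D2:**
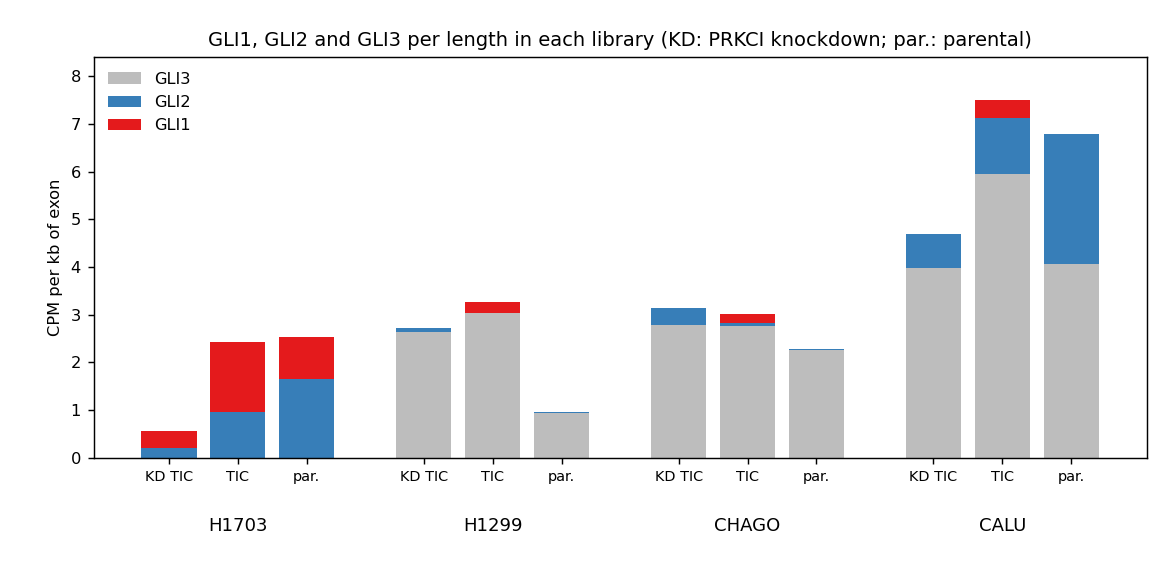
CPM per kilobase of exon of GLI1, GLI2 and GLI3, stacked for each library, with lines side by side and states in the order PRKCI knockdown TIC, TIC, parental. The bars of H1703 hold GLI1 and GLI2 and no GLI3, while GLI3 is the larger part of each bar in the other lines.

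PTCH1, the Hedgehog receptor and a GLI target, had reads in 12 of 12 libraries and no common direction over the lines. PRKCI knockdown TICs had 29.5 CPM for H1703, 22.2 for H1299, 21.0 for CHAGO and 25.3 for CALU. TICs had 5.58 CPM for H1703, 72.2 for H1299, 27.7 for CHAGO and 16.3 for CALU. Parental cells had 13.2 CPM for H1703, 38.0 for H1299, 22.0 for CHAGO and 28.7 for CALU. TICs were thus the lowest state in H1703 and CALU and the highest in H1299 and CHAGO. GLI1, in contrast, was highest in TICs in 4 of 4 lines. In H1703 PTCH1 was 2.37-fold lower in TICs than in parental cells and 5.28-fold higher in knockdown TICs than in TICs. The same ratios in CALU were 1.76-fold lower and 1.55-fold higher. The mean levels of 24.5 ± 3.77 CPM in knockdown TICs, 30.5 ± 29.3 CPM in TICs and 25.5 ± 10.5 CPM in parental cells (SD, n = 4 each) lay within each other's spread. The log2 fold change was 0.18 ± 0.58 SE for knockdown TICs against TICs and −0.0049 ± 0.53 SE for TICs against parental cells (edgeR adjusted p = 0.993 and 0.998). The second has a 95% interval from the fitted model of −1.19 to 1.18. Its sign turned to 0.034 with DESeq2 size factors, to 0.23 without H1703 and to 0.27 without CALU. The first was −0.53 without H1703.

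HHIP, a membrane protein that binds Hedgehog ligands and so damps the signal, was highest in CALU in each state. It had 0 reads in the 3 libraries of H1703. In PRKCI knockdown TICs it was at 1.06 CPM in H1299, 0 in CHAGO and 2.27 in CALU. In TICs it was at 0.161 CPM in H1299, 0.612 in CHAGO and 4.60 in CALU, and in parental cells at 0, 0.0600 and 28.8 CPM in the same lines. In CALU it was 6.27-fold lower in TICs than in parental cells and 2.03-fold lower in knockdown TICs than in TICs, while CHAGO had 50 reads for TICs and 4 for parental cells. The log2 fold changes over lines, −0.81 ± 3.05 SE for knockdown TICs against TICs and 0.56 ± 2.60 SE for TICs against parental cells, did not pass (edgeR adjusted p = 0.995 and 0.960), and without CHAGO they were 1.78 and −1.60.

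SMO, the membrane protein that passes the signal inward, had reads mainly in H1703 and H1299. PRKCI knockdown TICs had 5.37 CPM for H1703, 1.85 for H1299, 0.172 for CHAGO (13 reads) and 0 for CALU. TICs had 15.8 CPM in H1703 and 5.55 in H1299, with 0 reads in CHAGO and CALU. Parental cells had 2.91 CPM in H1703 and 3.43 in H1299, again with 0 reads in CHAGO and CALU. In H1703 and H1299 TICs were the highest state: knockdown TICs were 2.95-fold and 3.0-fold below TICs, and TICs were 5.45-fold and 1.62-fold above parental cells. In CHAGO and CALU the GLI1 reads of TICs came from libraries with 0 SMO reads, which allow SMO up to 0.0367 and 0.0362 CPM. The log2 fold changes over lines were 0.32 ± 1.26 SE for knockdown TICs against TICs and 1.31 ± 1.45 SE for TICs against parental cells (edgeR adjusted p = 0.996 and 0.784). The first was −1.45 without CHAGO, the line with 13 reads in knockdown TICs.

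**Figure D3:**
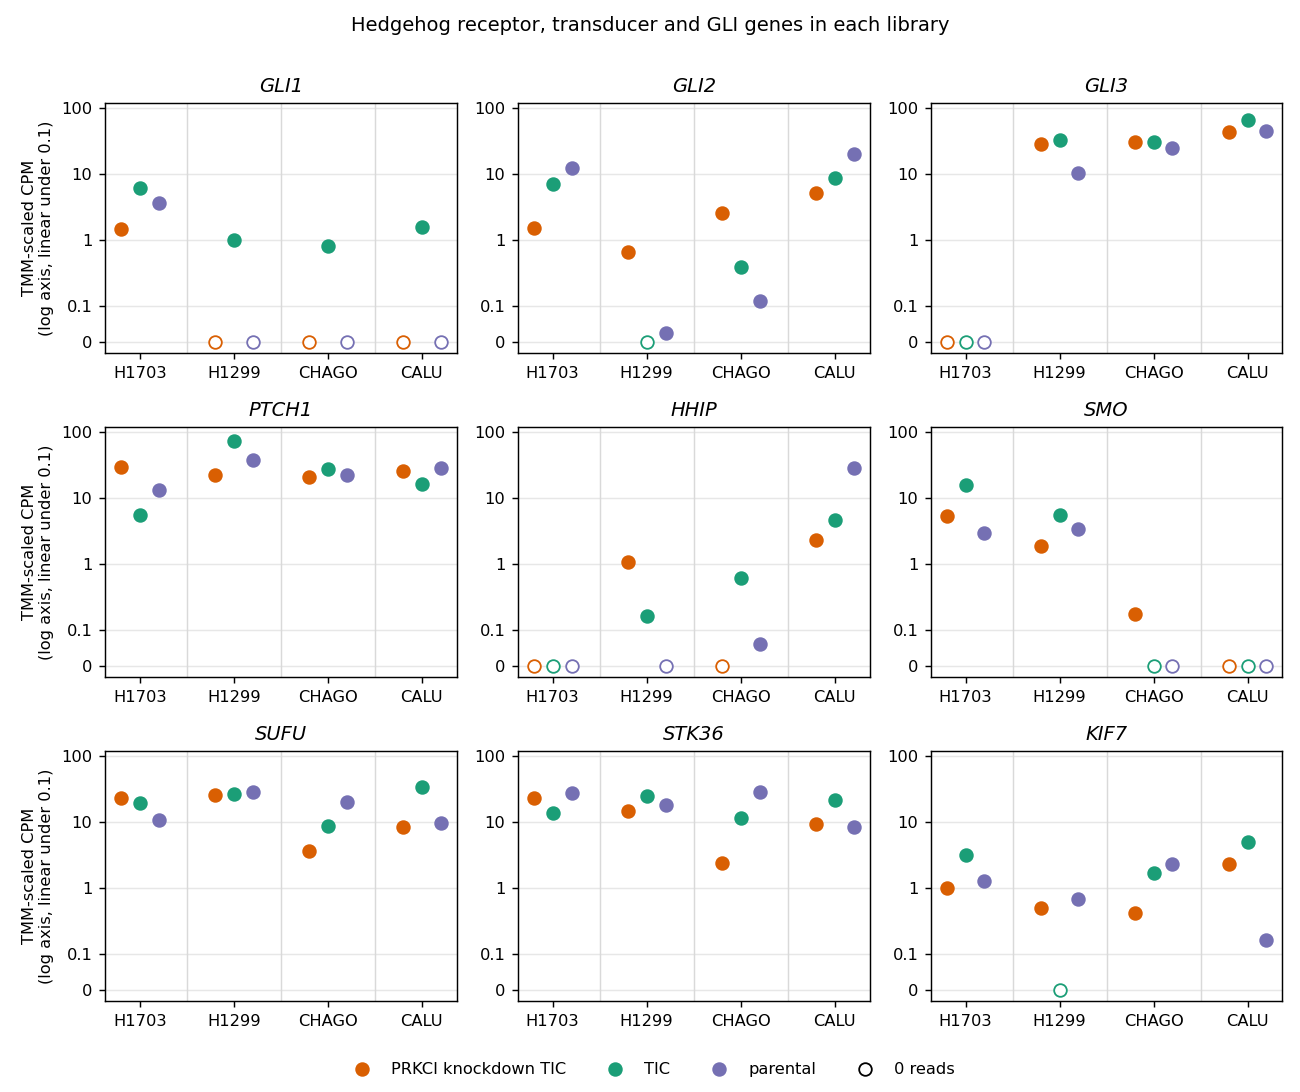
TMM-scaled CPM of the 9 genes in each of 12 libraries (log axis, linear under 0.1), with lines along the horizontal axis and states by color; open circles mark 0 reads. GLI3 and HHIP are at 0 in H1703 and SMO is at 0 in CALU, while PTCH1, SUFU and STK36 have reads in every library.

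SUFU, the cytoplasmic inhibitor that binds GLI proteins, had reads in 12 of 12 libraries. In PRKCI knockdown TICs it was at 23.0 CPM for H1703, 25.8 for H1299, 3.67 for CHAGO and 8.23 for CALU. In TICs it was at 19.5 CPM for H1703, 26.3 for H1299, 8.54 for CHAGO and 34.0 for CALU. In parental cells it was at 10.8 CPM for H1703, 28.6 for H1299, 19.7 for CHAGO and 9.46 for CALU. H1299 was nearly flat over the states, CHAGO stood lower in TICs and lowest in knockdown TICs, and CALU was high in TICs. In CALU knockdown TICs were 4.13-fold below TICs, and TICs were 3.60-fold above parental cells. Over lines the log2 fold changes were −0.71 ± 0.61 SE for knockdown TICs against TICs and 0.27 ± 0.63 SE for TICs against parental cells (edgeR adjusted p = 0.980 and 0.910), the second being −0.34 without CALU.

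STK36, the human counterpart of the fruit fly kinase Fused, also had reads in 12 of 12 libraries. PRKCI knockdown TICs had 23.0 CPM for H1703, 14.7 for H1299, 2.42 for CHAGO and 9.19 for CALU. TICs had 13.8 CPM for H1703, 24.8 for H1299, 11.5 for CHAGO and 21.2 for CALU. Parental cells had 27.6 CPM for H1703, 18.0 for H1299, 28.3 for CHAGO and 8.45 for CALU. Its lowest level, in CHAGO knockdown TICs, was 4.75-fold below CHAGO TICs and 11.7-fold below CHAGO parental cells. Knockdown TICs were below TICs in 3 of 4 lines, with a log2 fold change of −0.74 ± 0.63 SE, and TICs differed from parental cells by −0.21 ± 0.63 SE (edgeR adjusted p = 0.980 and 0.936), the second being 0.36 without CHAGO.

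KIF7, the ciliary kinesin that acts on GLI proteins at the cilium tip, was scarce. In PRKCI knockdown TICs it was at 1.0 CPM for H1703, 0.485 for H1299, 0.410 for CHAGO and 2.31 for CALU. In TICs it was at 3.20 CPM for H1703, 0 for H1299, 1.65 for CHAGO and 5.03 for CALU. In parental cells it was at 1.27 CPM for H1703, 0.676 for H1299, 2.33 for CHAGO and 0.162 for CALU. CALU TICs had 417 reads and CALU parental cells 14, a 31.1-fold difference (95% counting interval 18.4 to 57.5). H1299 ran the other way, with 0 reads for TICs and 26 for parental cells. Knockdown TICs were below TICs in the other 3 lines, by 3.18-fold in H1703, 4.03-fold in CHAGO and 2.18-fold in CALU. The log2 fold changes were −0.84 ± 1.43 SE for knockdown TICs against TICs and 0.39 ± 1.53 SE for TICs against parental cells (edgeR adjusted p = 0.987 and 0.953), the second being −0.11 without H1703 and −0.45 without CALU.

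Read as a group, 0 of the 9 genes passed edgeR in any comparison of states, and DESeq2 called 1, GLI1 in TICs against parental cells. In knockdown TICs 6 of 9 were lower than in TICs and 3 higher, where 49.1% of all genes were higher. Their median log2 fold change was −0.71 against −0.01 over 14008 genes. In TICs 6 of 9 were higher than in parental cells, where 48.7% of all genes were, with a median of 0.39 against −0.02 over all genes. With DESeq2 size factors that count was 7 of 9, since the sign of PTCH1 turned. At an unadjusted p under 0.05 only GLI1 was found in each, 1 of 9 in both comparisons, where 4.28% and 11.8% of all genes were. The groups of libraries did not separate for any of the 9 genes, against 0.764% of all genes for knockdown TICs against TICs and 1.57% for TICs against parental cells. These comparisons share the TIC libraries, so their directions are not independent of each other.

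**Figure D4:**
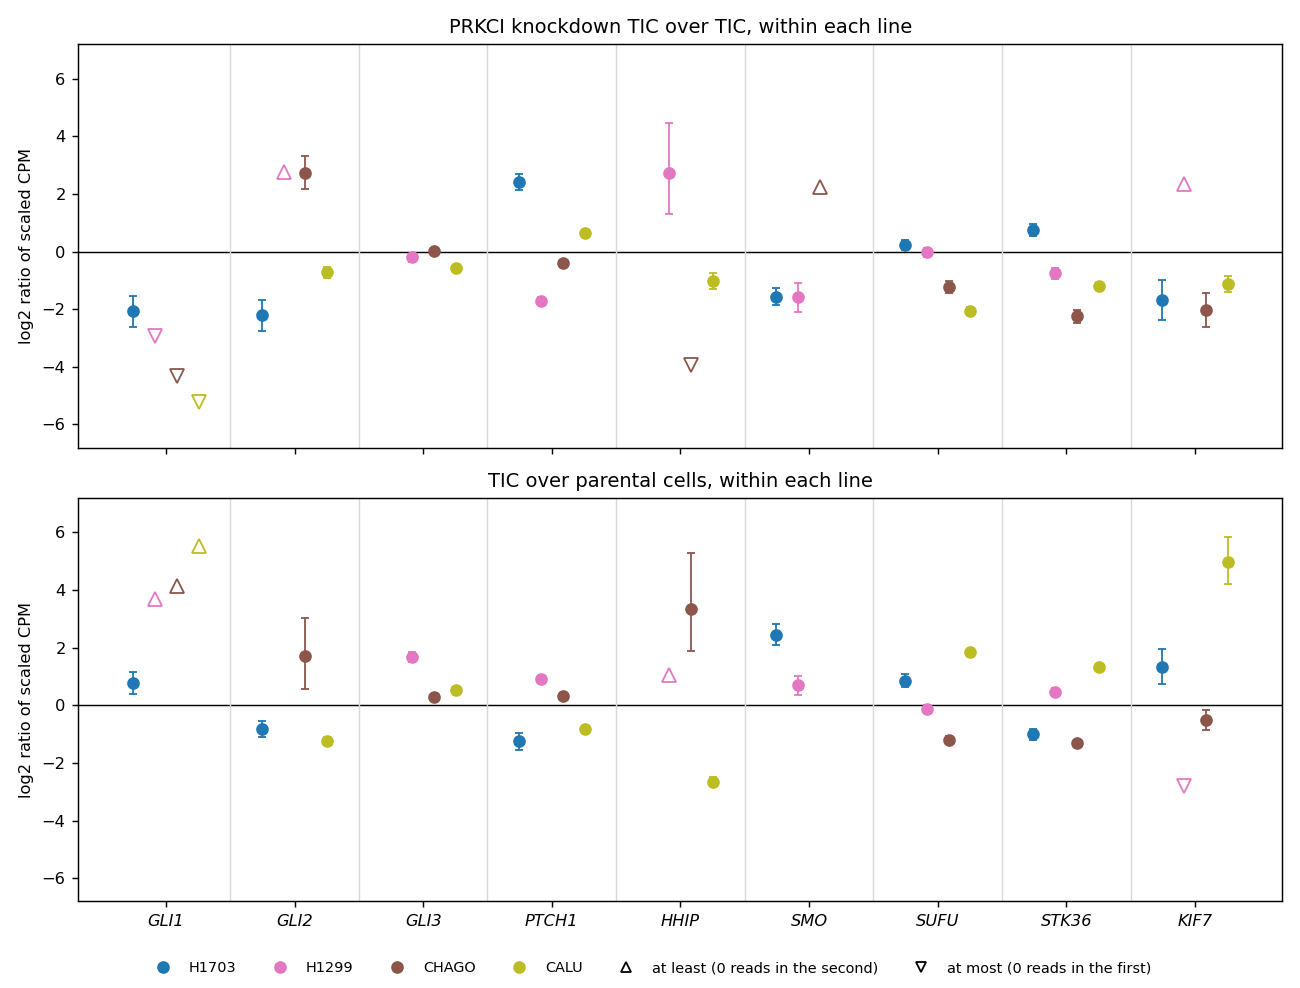
Log2 ratio of TMM-scaled CPM within each line for the 9 genes, PRKCI knockdown TICs over TICs in the upper panel and TICs over parental cells in the lower panel. Circles carry 95% counting intervals, open triangles are bounds where 1 library had 0 reads, and ratios with at most 3 reads on both sides are left out. GLI1 lies below 0 in 4 lines above and over 0 in 4 lines below, whereas GLI2, PTCH1, SUFU, STK36 and KIF7 have lines on both sides of 0 in both panels.

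Knockdown TICs were also set against parental cells, a comparison that changes both the state and PRKCI. Here 4 of 9 genes were higher and 5 lower, where 47.1% of all genes were higher. The median log2 fold change of the 9 was −0.25 against −0.05 over all genes. No gene of the 9 passed edgeR or DESeq2, which called 0.0357% and 3.06% of the genes they tested, and at an unadjusted p under 0.05 there were 0 of 9, against 10.7% of all genes. GLI1 was 2.48-fold lower in knockdown TICs of H1703 and at 0 reads on both sides in the other lines. GLI2 ran both ways: knockdown TICs were 8.09-fold below parental cells in H1703 and 3.84-fold below in CALU, and 21.5-fold above in CHAGO with 195 against 8 reads. Its log2 fold change over lines, 1.5 ± 1.61 SE (edgeR adjusted p = 0.797), was −0.20 without H1299 and −0.037 without CHAGO.

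In a test for any difference between cell lines, with the state as a term, 3 of 9 genes passed. Over all genes edgeR called 45.4%, so the genes described here were not called more often than genes at large. They were GLI3 (adjusted p = 0.000117), SMO (0.0101) and GLI1 (0.0108), with Benjamini-Hochberg adjustment in edgeR. The lowest GLI3 level in H1299, CHAGO and CALU was at least 76.5-fold above the H1703 limit. The lowest SMO level in H1703 and H1299 was at least 43.8-fold above the CALU limit. GLI2 (adjusted p = 0.0522) and HHIP (0.0609) missed the threshold in edgeR, and the lowest HHIP level in CALU was at least 16.8-fold above the H1703 limit. PTCH1, SUFU, STK36 and KIF7 had adjusted p from 0.258 to 0.656. The calls of GLI1 and GLI3 rested on H1703: without it the edgeR adjusted p was 0.958 for GLI1 and 0.0877 for GLI3.

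Upstream of the receptors, the libraries held no reads of any Hedgehog ligand gene: SHH, IHH and DHH had 0 reads in 12 of 12. HHAT, the acyltransferase that palmitoylates the ligands, was at 1.43 CPM for H1703, 20.3 for H1299, 1.56 for CHAGO and 3.49 for CALU in PRKCI knockdown TICs. In TICs the HHAT level was 2.84 CPM for H1703, 71.0 for H1299, 7.63 for CHAGO and 6.57 for CALU. In parental cells it was 1.02 CPM for H1703, 18.5 for H1299, 1.91 for CHAGO and 4.76 for CALU. HHAT was therefore highest in TICs in 4 of 4 lines, as GLI1 was. Its log2 fold changes of −1.53 ± 0.44 SE for knockdown TICs against TICs and 1.49 ± 0.44 SE for TICs against parental cells missed the threshold in edgeR (adjusted p = 0.980 and 0.247), and DESeq2 called the second (adjusted p = 0.138 and 0.0165). Of 10 genes for ligands and their handling, 5 were tested and 0 passed edgeR in any comparison. HHAT alone had an unadjusted p under 0.05, in knockdown TICs against TICs and in TICs against parental cells. Over all genes the shares there were 4.28% and 11.8%, and DESeq2 called 0.0785% and 4.02%.

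Among 8 co-receptors and other receptor genes, 5 were tested and 0 passed edgeR or DESeq2. With an unadjusted p under 0.05 there were 0 for knockdown TICs against TICs and 2, CDON and GPC6, for TICs against parental cells. The shares over all genes were 4.28% and 11.8%. CDON, a co-receptor that binds ligand, averaged 42.6 ± 41.7 CPM in TICs and 15.7 ± 8.72 CPM in parental cells (SD, n = 4 each), higher in 4 of 4 lines, with a log2 fold change of 1.05 ± 0.44 SE (edgeR adjusted p = 0.384). GPC6, a glypican of the cell surface, had a log2 fold change of 1.32 ± 0.41 SE in the same comparison (edgeR adjusted p = 0.288). It was higher in 3 of 4 lines, and H1703 had 0 reads on both sides.

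Of 27 kinases, ligases and adaptors that act on GLI proteins, 21 were higher in TICs than in parental cells and 0 passed edgeR, with a median log2 fold change of 0.32 against −0.02 over all genes. In knockdown TICs 17 of 27 were lower than in TICs (median −0.09 against −0.01). At an unadjusted p under 0.05 there were 4 for knockdown TICs against TICs and 3 for TICs against parental cells. The shares over all genes there were 4.28% and 11.8%. DESeq2 called 0 and 1 of the 27, against 0.0785% and 4.02% over all genes. NUMB, an adaptor that brings the ligase ITCH to GLI1, stood at 268 ± 97.8 CPM in TICs and 150 ± 54.6 CPM in parental cells (SD, n = 4 each), higher in 4 of 4 lines (log2 fold change 0.86 ± 0.23 SE, edgeR adjusted p = 0.210, DESeq2 adjusted p = 0.0239). GSK3B, a kinase that phosphorylates GLI3 ahead of its processing, had a log2 fold change of 0.67 ± 0.20 SE in TICs against parental cells (edgeR adjusted p = 0.242). KCTD11, an adaptor of the ligase complex that counters GLI1 through HDAC1, was lower in knockdown TICs than in TICs in 4 of 4 lines (log2 fold change −0.84 ± 0.30 SE, edgeR adjusted p = 0.980). TULP3, which carries receptors into cilia, was higher in knockdown TICs than in parental cells in 4 of 4 lines (log2 fold change 1.35 ± 0.32 SE, edgeR adjusted p = 0.213, DESeq2 adjusted p = 0.00708). In that comparison DESeq2 called 2 of the 27, TULP3 and NUMB, against 3.06% over all genes.

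Genes known elsewhere as GLI targets had members on both sides. Of 25, 20 were tested, and 13 were lower in knockdown TICs than in TICs and 9 higher in TICs than in parental cells, with medians of −0.41 and −0.06 on the log2 scale (−0.01 and −0.02 over all genes) and 0 passing edgeR. At an unadjusted p under 0.05 there were 1 and 2 of them (4.28% and 11.8% over all genes), and DESeq2 called 0 and 1 (0.0785% and 4.02% over all genes). PAX6 was lower in TICs than in parental cells in 4 of 4 lines, at 6.71 ± 7.68 CPM in TICs and 22.6 ± 19.7 CPM in parental cells (SD, n = 4 each, edgeR adjusted p = 0.225, DESeq2 adjusted p = 0.00977). FOXM1, a proliferation factor, had a log2 fold change of −1.08 ± 0.39 SE in the same comparison (edgeR adjusted p = 0.319). SNAI2, a mesenchymal transcription factor, had a log2 fold change of 2.05 ± 0.75 SE in knockdown TICs against TICs (edgeR adjusted p = 0.980), higher in 2 of 4 lines. Those were H1299 (2.43 against 0.194 CPM) and CHAGO (21.4 against 2.73 CPM). CALU, with the highest level, ran the other way (358 against 425 CPM), and H1703 had 0 reads in each state. Against parental cells the SNAI2 log2 fold change in knockdown TICs was 2.45 ± 0.72 SE, higher in 3 of 4 lines (edgeR adjusted p = 0.301). DESeq2 called it (adjusted p = 0.0165), as 1 of the 20 tested targets there, against 3.06% over all genes.

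Of 26 genes for the cilium and its transport, 14 were lower in knockdown TICs than in TICs (median −0.03 against −0.01 over all genes), 20 were lower in TICs than in parental cells (median −0.30 against −0.02), and 0 passed edgeR. At an unadjusted p under 0.05 there were 3 in both comparisons, where the shares over all genes were 4.28% and 11.8%, and DESeq2 called WDR35 alone in both (0.0785% and 4.02% over all genes). WDR35, a part of the retrograde transport complex, stood at 113 ± 52.6 CPM in knockdown TICs, 58.3 ± 27.2 CPM in TICs and 109 ± 40.3 CPM in parental cells (SD, n = 4 each). It was lowest in TICs in 4 of 4 lines, and DESeq2 called it in knockdown TICs against TICs (adjusted p = 0.0223) and in TICs against parental cells (adjusted p = 0.00365), where edgeR adjusted p was 0.980 and 0.173. RPGRIP1L, a protein of the ciliary transition zone, was lower in TICs than in parental cells in 4 of 4 lines (log2 fold change −1.29 ± 0.44 SE, edgeR adjusted p = 0.297).

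The genes whose levels ran most like those described here were found by Pearson correlation of log2 CPM over the 12 libraries, among 10830 genes whose mean log2 CPM was not below 0 (10829 where the gene itself met that level). They are descriptions, since the libraries share lines and the highest values in so many genes are large by selection. Among the nearest to GLI1 were ANXA11 (r = 0.856) and KCTD11 (0.854). GLI3 had much closer neighbours, MAN1A1 (0.995), SMARCA2 (0.994) and FAM46A (0.992). SMO had HIST1H2BH (0.985), PEG3 (0.965) and ADD2 (0.964), GLI2 had CETN2 (0.919), PTCH1 had ZNF3 (0.952) and HHIP had SNAP23 (0.919).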

How the data were processed

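Read counts of 12 libraries were analysed, with 1 library for each state of a line. Per the labels' protocols, a Qiagen RNeasy kit gave the RNA and a NuGEN kit the libraries. CASAVA 1.4, TopHat 1.4, HTSeq 0.5.3p3 and build hg19 are named, per the submitters' processing notes, without their roles. The deposited table holds raw counts per gene, per the file headers. The authors also deposited mode-normalized values (unit score), each the count times a factor of its library, rounded. Among 22506 listed genes 4044 lack reads, and 26 symbols had become spreadsheet dates.

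Columns were joined to samples by name. The name of the CALU knockdown column and its sample title are 1 letter apart, and across genes it correlated at 0.918 with CALU TICs and at most at 0.738 with another line. Libraries were paired by line: same-line libraries correlated at 0.553 to 0.760 after the state means were removed (12 pairs), while across lines the range was −0.414 to −0.0601 (36 pairs).

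In R 4.3.3, filterByExpr of edgeR 4.0.16 kept 14008 genes. TMM-scaled counts were fitted with the edgeR quasi-likelihood model with terms for state and line (6 residual degrees of freedom). Tests were two-sided, and p was adjusted over all genes by Benjamini-Hochberg, with 0.05 as threshold. Standard errors divide the log2 fold change by the root of F. Counting intervals are exact Poisson or exact binomial at 95%. The interval of the PTCH1 log2 fold change over lines comes from the fitted model and its standard error. Levels per kilobase use GENCODE v29 exon lengths, and GENCODE and RefSeq belong to another build than the counts. The model was tested on simulated data, with changes placed only in well-expressed genes. That test did not cover genes as scarce as GLI1, and its outcome is not reported here.

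Alternatives were DESeq2 size factors, library totals, other filters, no line block, 2 states only, each line left out, DESeq2 1.42.0, limma 3.58.1 voom, and limma on mode-normalized values (pseudocount 1). The 9 genes, the gene lists and the tests were chosen with earlier results of these data known. Always named are the 9 genes and PRKCI, from each list called genes or else up to 3 of smallest p (not all are printed), and the genes of most like pattern. The search for genes with reads in 1 state was added after the data were seen. A few genes that these rules take are not reported here.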

Additional observations from a re-analysis of the deposited data

Results flagged for a closer look

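In groups of 4 libraries, 5 of 27 had 1 library standing apart from the other 3 by Dixon's test. Chance gives about 1 in 20 for normally distributed values, and that rate cannot be set against these 5: in 3 of them the other lines were at or near 0 reads, and the GLI1 values all come from H1703. GLI1 stood apart in H1703 in each state, at 1.47 CPM in PRKCI knockdown TICs (next highest line 0), 6.17 CPM in TICs (next 1.58) and 3.64 CPM in parental cells (next 0). HHIP stood apart in CALU, at 4.60 CPM in TICs (next 0.612) and 28.8 CPM in parental cells (next 0.0600).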

How the results depend on the processing

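Of 345 results of the 9 genes under other settings, 304 kept their direction and their side of the threshold. GLI1 in TICs against parental cells passed in DESeq2, and 40 turned their sign, none of them past the threshold. Genes called for knockdown TICs against TICs were 2, and 0 with a 1 CPM filter, 0 without the line block, 0 with 2 states only, 11 in DESeq2, 1 in voom, 1 with mode-normalized values and 0 to 1 with a line left out. For TICs against parental cells they were 4, and 0 without the line block, 0 with 2 states only, 509 in DESeq2, 10 in voom, 43 with mode-normalized values and 0 to 0 with a line left out. For knockdown TICs against parental cells they were 5, and 8 with DESeq2 size factors, 3 with a 1 CPM filter, 0 without the line block, 0 with 2 states only, 395 in DESeq2, 20 with mode-normalized values and 0 to 2 with a line left out. Without the line block, signs turned in knockdown TICs against TICs for GLI2 (−0.68), PTCH1 (−0.31) and SMO (−1.53), in TICs against parental cells for PTCH1 (0.26) and HHIP (−2.42), and in knockdown TICs against parental cells for GLI2 (−1.70) and PTCH1 (−0.057). In voom the same comparisons turned for GLI2 (−0.41), PTCH1 (−0.069) and SMO (−0.91), for HHIP (−1.52) and STK36 (0.029), and for GLI2 (−1.28), PTCH1 (−0.12) and KIF7 (0.39). Others were SMO in knockdown TICs against TICs with 2 states only (−0.24) and with mode-normalized values (−0.44), PTCH1 in TICs against parental cells with DESeq2 size factors (0.034) and in DESeq2 (0.033), STK36 there with mode-normalized values (0.0030), and in knockdown TICs against parental cells HHIP in DESeq2 (0.017) and KIF7 with mode-normalized values (0.090). With a line left out, the ranges that crossed 0 in knockdown TICs against TICs were HHIP −4.50 to 1.78, PTCH1 −0.53 to 0.87 and SMO −1.45 to 2.06. In TICs against parental cells they were HHIP −1.60 to 1.02, KIF7 −0.45 to 1.16, PTCH1 −0.46 to 0.27, STK36 −0.69 to 0.36 and SUFU −0.34 to 0.94. In knockdown TICs against parental cells they were GLI1 −0.92 to 0.025, GLI2 −0.20 to 2.85, HHIP −3.48 to 0.19, KIF7 −1.04 to 0.33, PTCH1 −0.30 to 0.41, SMO −0.067 to 3.33 and SUFU −1.02 to 0.31. The cause of these changes was not tested. Genes that differed between lines numbered 6359, and 4351 to 7914 under other settings. There GLI1 lost its call without the state term (adjusted p = 0.442), and GLI2 (0.0299 to 0.219 with a line left out, 0.00351 in DESeq2) and HHIP (0.0176 to 0.171, 0.00577 in DESeq2) passed in some settings, while HHIP had no value without CALU. The promoter core was found in 2 of the genes in place of 1. Under library totals the median of all genes in knockdown TICs against parental cells was −0.11.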
